A study of Rattus norvegicus with 10 samples.

Results

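Genes of cholesterol and fatty acid synthesis were followed by RNA sequencing in left hippocampi from female TgF344-AD rats. This Fischer line carries mutant human amyloid precursor protein and presenilin transgenes under the mouse prion promoter and is used as a model of Alzheimer disease. In all, 31 genes were chosen by symbol: 18 enzymes of the mevalonate and sterol pathway, 6 genes of its control, 3 genes of cholesterol transfer, storage and removal, and 4 enzymes of fatty acid synthesis. Every one of the 31 symbols was found among the 17168 rows of the count file, and all 31 were among the 11682 genes that passed the filter on low counts.

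The ibudilast group was 5 transgenic females fed chow with ibudilast, an inhibitor of several cyclic nucleotide phosphodiesterases, from 5 months of age and for 6 months. The untreated group was 5 transgenic females fed rodent chow without the drug. All 10 rats were 11 months old at dissection, all carried the transgenes, and each library had an animal tag of its own. No rats without the transgenes were in the comparison, so by their labels the groups differ in the drug, within the transgenic line. Levels of cell type and tissue markers differed between the groups as well, as given below.

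Cholesterol in the brain is made locally, since lipoproteins of the blood hardly cross the barrier, and in adult life astrocytes supply much of it to neurons. Acetyl-CoA is built up to mevalonate and then to farnesyl pyrophosphate, which squalene synthase joins into squalene, and a long series of late enzymes turns that into cholesterol. When the endoplasmic reticulum runs low in sterol, SCAP escorts the SREBP transcription factors to the Golgi, where 2 proteases free them to switch on these genes, and the INSIG proteins hold SCAP back when sterol is plentiful.

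Of the 31 genes, 6 rose, 1 fell and 24 did not pass the test (quasi-likelihood F-test of edgeR, with a false discovery rate of 0.05 over all tested genes). Over all 11682 tested genes 38.5% were called, 20.0% higher and 18.5% lower, and of the 31 genes 22.6% were, 19.4% higher and 3.23% lower. Stard4, which encodes a cholesterol transfer protein, and Acaca, which encodes acetyl-CoA carboxylase 1, had the largest changes, 2.64-fold and 2.22-fold higher with ibudilast. Insig1, Lss, Sc5d and Scap rose 1.33- to 1.45-fold, and the desaturase gene Scd fell to 0.773 of its untreated level. The median log2 fold change was 0.07 over the 31 genes and 0.01 over all tested genes. At 4 of the 31 genes no ibudilast library shared the range of the untreated ones, Stard4, Acaca, Insig1 and Sc5d, with ibudilast above in each, while 12.5% of all tested genes had ibudilast wholly above and 11.8% wholly below.

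**Figure D1:**
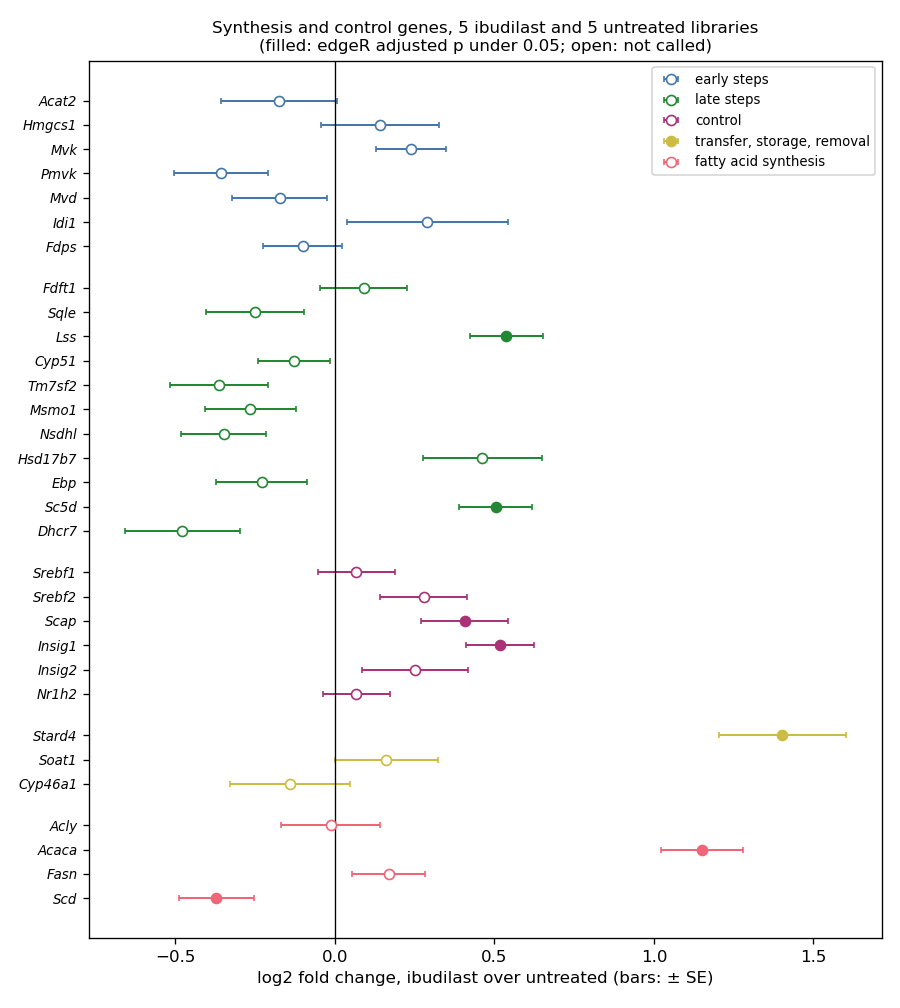
Log2 fold change of each of the 31 genes (x axis, ibudilast over untreated, bars ± SE from the fit over all genes), ordered by role down the y axis; filled points passed edgeR and open points did not. Stard4 (1.40) and Acaca (1.15) stand to the right of all others, the early steps are all open, and Scd (-0.37) is the single filled point left of 0.

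Total counts ran from 7553804 to 10121571 in the ibudilast group and from 6960066 to 8204390 in the untreated group (two-sided exact permutation p = 0.0556 for the difference in means, 252 arrangements). Markers of hippocampal principal neurons were present in every library, with summed levels of 443 to 982 CPM with ibudilast and 767 to 1290.6 CPM without (CPM here are counts scaled by library size and TMM factors), and 4 of 10 tested members were lower and 0 higher (0 higher at an unadjusted p under 0.05 in edgeR, 0 called higher by DESeq2 or limma-voom). Marker levels of other cell types and tissues also differed between the groups and in single libraries. Neocortical markers summed to 361 to 886 CPM with ibudilast against 283 to 324 CPM without (6 of 10 tested members higher), astrocyte markers to 3110.3 to 4505.7 CPM against 4790.2 to 7074 CPM (5 of 11 lower), and microglial markers to 375 to 719 CPM against 826 to 1441.5 CPM (11 of 12 lower). Endothelial and mural markers summed to 392 to 713 CPM against 576 to 825 CPM (5 of 11 lower by edgeR, 6 by DESeq2 and by limma-voom). Oligodendrocyte precursor markers summed to 614 to 757 CPM against 836 to 909.5 CPM (1 of 10 higher and 4 lower). Markers of myelinating oligodendrocytes, the cells with the heaviest need for cholesterol, summed to 5923 to 12296 CPM against 6358 to 19007 CPM, and 0 of 14 passed edgeR (1 at an unadjusted p under 0.05, 1 called by DESeq2 and 0 by limma-voom). Cerebellar granule cell markers summed to 3684 CPM in ibudilast 3 and to at most 151 CPM elsewhere, and meningeal markers to 5433.5 CPM (ibudilast 3) and 4503 CPM (ibudilast 5) against at most 583 CPM elsewhere. Choroid plexus markers summed to 2588 CPM in untreated 1 and to at most 78.3 CPM elsewhere. The part of these differences in the results that follow was not tested, and in bulk tissue fewer cells of a type and less RNA per cell cannot be told apart.

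The early enzymes, from acetyl-CoA to farnesyl pyrophosphate, gave no call. Of the 7 genes 0 passed edgeR, DESeq2 or limma-voom, and each tool gave 1 an unadjusted p under 0.05, which in edgeR was Pmvk. Over all tested genes 38.5% passed edgeR, 42.6% DESeq2 and 37.5% limma-voom. Hmgcs1, which makes HMG-CoA, stood at 392, 443, 238, 500.1 and 433 CPM in ibudilast libraries 1 to 5, against 376, 281, 396, 333 and 433 CPM in untreated libraries 1 to 5. The groups overlapped over most of their range, with the lowest value in ibudilast 3 and the next lowest in untreated 2 (log2 fold change 0.14 ± 0.19, SE). Acat2, the cytosolic thiolase that makes acetoacetyl-CoA, averaged 53.2 ± 12.5 CPM with ibudilast and 60.2 ± 10.3 CPM without (SD, n = 5 each). Mevalonate kinase, from Mvk, stood at 27.2 to 37.0 CPM with ibudilast and 24.4 to 30.9 CPM without, with an edgeR adjusted p = 0.106.

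The kinase gene that follows it, Pmvk, lay on the other side of 0, at 25.5 to 44.4 CPM with ibudilast and 40.2 to 55.8 CPM without (log2 fold change -0.36 ± 0.15, SE; edgeR adjusted p = 0.0743). Mvd, the decarboxylase that yields isopentenyl pyrophosphate, stood at 36.8 to 62.1 CPM with ibudilast and 50.4 to 69.3 CPM without. Idi1, which isomerises that product, stood at 41.5, 44.2, 105, 48.4 and 39.7 CPM in ibudilast libraries 1 to 5 and at 40.6 to 49.1 CPM in the untreated libraries. Its high mean with ibudilast came from ibudilast 3, with a log2 fold change of 0.29 when it was kept and -0.07 when it was left out. Fdps, which makes farnesyl pyrophosphate, averaged 104 ± 17.5 CPM with ibudilast and 112 ± 11.2 CPM without. Processed pseudogene copies of Fdps and Cyp51 are known in the rat, so the counts of both genes may share reads with such copies.

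Among the late enzymes, from squalene to cholesterol, 2 of 11 rose by edgeR, Lss and Sc5d, and 0 fell. That is 18.2% higher and 0% lower, beside 20.0% higher and 18.5% lower over all tested genes. On the lower side 3 had an unadjusted p under 0.05 in edgeR. DESeq2 called 2 lower, Nsdhl and Dhcr7, and limma-voom called 1, Dhcr7. Lanosterol synthase, from Lss, folds squalene epoxide into the first sterol, and its gene stood at 44.3, 50.5, 38.4, 46.9 and 43.3 CPM in ibudilast libraries 1 to 5, against 29.0, 30.0, 26.5, 38.6 and 29.8 CPM in untreated libraries 1 to 5. Only untreated 4 reached the ibudilast range, where it passed ibudilast 3 (log2 fold change 0.54 ± 0.12, SE; edgeR adjusted p = 0.00495). Sc5d, a desaturase that adds a double bond to the sterol ring near the end of the pathway, stood at 86.3, 108, 81.8, 111 and 95.6 CPM in ibudilast libraries 1 to 5, against 60.8, 60.8, 71.7, 67.0 and 80.3 CPM in untreated libraries 1 to 5. The groups did not overlap, although untreated 5 and ibudilast 3 nearly met (log2 fold change 0.50 ± 0.11, SE; edgeR adjusted p = 0.00626).

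Other late enzymes lay lower with ibudilast without passing edgeR. Dhcr7, the reductase of the last step of one branch, stood at 39.3, 33.0, 16.8, 31.6 and 29.6 CPM in ibudilast libraries 1 to 5, against 44.6, 39.9, 43.7, 38.7 and 42.6 CPM in untreated libraries 1 to 5. Ibudilast 3 was far below the rest and ibudilast 1 reached the untreated range (log2 fold change -0.48 ± 0.18, SE; edgeR adjusted p = 0.0549). Without ibudilast 3 the change was smaller and its error smaller still, at -0.32 ± 0.10 (SE; edgeR adjusted p = 0.024). Nsdhl, a sterol dehydrogenase of the C4 demethylation complex, averaged 37.7 ± 6.58 CPM with ibudilast and 48.0 ± 5.24 CPM without (SD, n = 5 each; edgeR adjusted p = 0.0591). Msmo1, the oxidase of the same complex, stood at 133, 130.0, 78.9, 129 and 125 CPM in ibudilast libraries 1 to 5 and at 123 to 159 CPM in the untreated libraries. Hsd17b7, the ketoreductase of that complex, was on the higher side, at 5.83 to 8.91 CPM with ibudilast and 4.03 to 7.03 CPM without (log2 fold change 0.46 ± 0.19, SE; edgeR adjusted p = 0.0701). Members of a single enzyme complex thus had fold changes of both signs, none of them past the test.

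Squalene monooxygenase, from Sqle, catalyses a rate-limiting step of the late pathway. Sqle stood at 46.7 to 87.1 CPM with ibudilast and 75.2 to 97.8 CPM without (log2 fold change -0.25 ± 0.15, SE). Fdft1, the squalene synthase gene, averaged 156 ± 25.4 CPM with ibudilast and 146 ± 20.6 CPM without (SD, n = 5 each), and Cyp51, the lanosterol demethylase gene, 178 ± 24.6 CPM and 195 ± 18.7 CPM in the same order. Tm7sf2, a sterol reductase, and Ebp, a sterol isomerase, had log2 fold changes of -0.36 ± 0.15 and -0.23 ± 0.14 (SE). Over the 18 early and late enzymes 7 log2 fold changes were above 0 and 11 below, with a median of -0.15.

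Of the 6 genes that control the pathway 2 rose, Insig1 and Scap, and 0 fell by edgeR, DESeq2 or limma-voom (0 lower at an unadjusted p under 0.05), beside 20.0% of all tested genes higher and 18.5% lower. Their median log2 fold change was 0.26; Srebf1 and Nr1h2 lay near 0 and turned below it without untreated 3 and without ibudilast 3. Insig1, the anchor that holds SCAP in the endoplasmic reticulum and is itself an SREBP target, stood at 152, 179.9, 130.0, 180.5 and 159.5 CPM in ibudilast libraries 1 to 5, against 113, 100.1, 105, 117 and 126 CPM in untreated libraries 1 to 5. All ibudilast libraries were above all untreated ones (log2 fold change 0.52 ± 0.11, SE; edgeR adjusted p = 0.00404). Scap, the escort itself, stood at 248, 222, 149.8, 227 and 203 CPM in ibudilast libraries 1 to 5, against 132, 156, 156, 164 and 185 CPM in untreated libraries 1 to 5. Here ibudilast 3 sat within the untreated range and the other 4 were above it (log2 fold change 0.41 ± 0.14, SE; edgeR adjusted p = 0.0358). Scap passed in 2 of the 10 fits that left out 1 library, those without ibudilast 3 or untreated 5, and its adjusted p reached 0.0861 in the others, while its log2 fold change stayed between 0.34 and 0.51. Without ibudilast 3 it was 0.51 (edgeR adjusted p = 0.00355), and without ibudilast 3, ibudilast 5 and untreated 1 it was 0.49 (edgeR adjusted p = 0.0127).

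Srebf2, which encodes the SREBP that drives the sterol genes, did not pass. It stood at 452, 456, 304, 499.7 and 450.3 CPM in ibudilast libraries 1 to 5, against 329.8, 306, 360.5, 373 and 415 CPM in untreated libraries 1 to 5. The other 4 ibudilast libraries were above every untreated library and ibudilast 3 was below all of them (log2 fold change 0.28 ± 0.14, SE; edgeR adjusted p = 0.124). Without ibudilast 3 the log2 fold change was 0.39 ± 0.10 (SE) and passed (edgeR adjusted p = 0.00976). That was the only 1 of 23 alternative fits in which Srebf2 passed. Without ibudilast 3, ibudilast 5 and untreated 1 it was 0.36 (edgeR adjusted p = 0.0515). In 2 fits described below it was 0.09 with the trend on gene span removed and -0.049 with a neocortical marker score. Srebf1, whose product turns more to fatty acid genes, averaged 99.9 ± 15.3 CPM with ibudilast and 95.4 ± 10.4 CPM without (SD, n = 5 each). Insig2 averaged 12.5 ± 2.31 CPM with ibudilast and 10.5 ± 1.76 CPM without, and Nr1h2, which encodes the oxysterol receptor LXR beta, 59.8 ± 7.91 CPM and 57.1 ± 5.06 CPM in the same order.

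**Figure D2:**
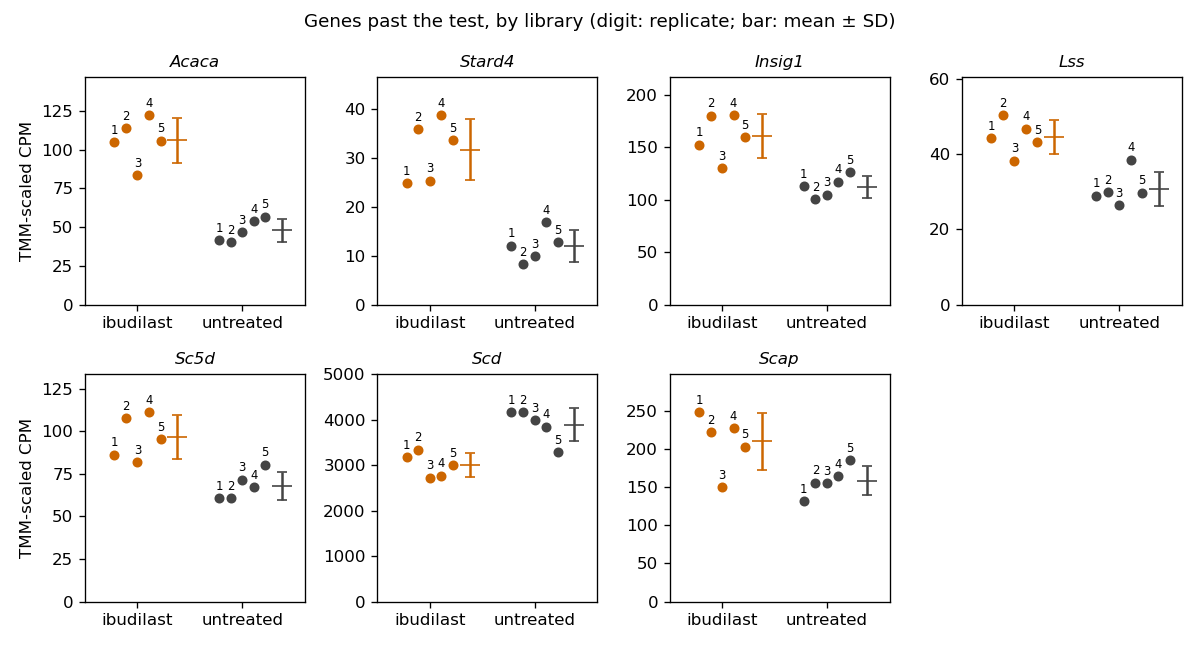
TMM-scaled CPM (y axis, from 0) of the 7 genes that passed edgeR, in each ibudilast library and each untreated library (x axis; digits are replicate numbers, bars mean ± SD, n = 5 each). Acaca and Stard4 are clear of the untreated libraries, ibudilast 3 is the lowest ibudilast library for Acaca, Insig1, Lss, Sc5d, Scap and Scd, and Scd is lower with ibudilast.

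Promoters of some of the called genes are shown because SREBP acts on its target genes together with the factors NF-Y and Sp1. RefSeq promoter windows (GRCr8, 250 bases before to 50 after the start) matched 25 of the 31 genes, and none was matched for Acaca, Stard4, Fasn, Pmvk, Fdft1 and Sqle. Searched on both strands were the sterol regulatory element TCACNCCAC, the NF-Y box CCAAT and the Sp1 GC box GGGCGG, and in the windows printed no match overlapped another. The windows printed are those of the called genes with most of these motifs, 5′ to 3′ on the strand of the gene, with every motif match in capitals. Scd, the called gene that fell, had a window with 0 matches of each of the motifs, and it is not printed.
Sc5d (chr8:51538228-51538527, minus strand): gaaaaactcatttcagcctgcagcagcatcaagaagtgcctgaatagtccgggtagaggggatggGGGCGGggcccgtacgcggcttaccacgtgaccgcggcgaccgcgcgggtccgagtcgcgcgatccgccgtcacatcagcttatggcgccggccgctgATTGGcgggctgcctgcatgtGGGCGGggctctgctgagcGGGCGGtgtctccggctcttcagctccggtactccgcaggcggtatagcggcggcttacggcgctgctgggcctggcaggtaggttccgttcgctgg
Lss (chr20:12118181-12118480, minus strand): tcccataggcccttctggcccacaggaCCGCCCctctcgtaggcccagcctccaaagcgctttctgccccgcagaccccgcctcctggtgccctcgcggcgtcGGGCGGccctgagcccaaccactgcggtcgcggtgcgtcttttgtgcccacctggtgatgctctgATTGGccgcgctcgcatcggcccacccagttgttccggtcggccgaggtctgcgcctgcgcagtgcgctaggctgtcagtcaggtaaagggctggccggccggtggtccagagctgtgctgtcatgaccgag
Insig1 (chr4:8057720-8058019, minus strand): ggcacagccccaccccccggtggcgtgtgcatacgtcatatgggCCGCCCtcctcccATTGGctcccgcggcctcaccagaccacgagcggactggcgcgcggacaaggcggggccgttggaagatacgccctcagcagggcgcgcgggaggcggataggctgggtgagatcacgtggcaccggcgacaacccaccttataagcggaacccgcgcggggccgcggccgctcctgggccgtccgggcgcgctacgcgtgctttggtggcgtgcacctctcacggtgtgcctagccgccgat
Scap (chr8:119184188-119184487, plus strand): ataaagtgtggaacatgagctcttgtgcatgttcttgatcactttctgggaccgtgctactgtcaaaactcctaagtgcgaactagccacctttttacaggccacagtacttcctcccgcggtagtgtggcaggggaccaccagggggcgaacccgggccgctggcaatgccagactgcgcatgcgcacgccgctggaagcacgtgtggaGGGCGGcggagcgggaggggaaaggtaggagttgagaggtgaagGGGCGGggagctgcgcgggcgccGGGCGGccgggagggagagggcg

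In these windows the NF-Y box read as ATTGG, its reverse complement, and began 87 bases before the start in Sc5d, 82 in Lss and 193 in Insig1, whereas Scap held 3 GC boxes and no NF-Y box. An NF-Y box was found in 19 of the 25 windows (76%), against 37.7% of all 27457 promoter windows and 37.2% of the 8766 windows of tested genes. A GC box was found in 20 of 25 (80%), against 34.9% of all windows and 62.7% of those of tested genes. The 9-letter sterol element was found in 0 of the 25 windows and in 1.13% of all windows, which says only that these letters are not in these 300 bases. The NF-Y box was in windows of genes that rose, such as Lss, and of genes that did not pass on either side, such as Nsdhl with 5 matches and Mvk with 5.

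Cholesterol transfer, storage and removal gave the largest change of the set. Stard4, a soluble carrier that moves cholesterol between membranes and is an SREBP target, stood at 24.9, 35.9, 25.4, 38.8 and 33.7 CPM in ibudilast libraries 1 to 5, against 12.1, 8.31, 9.97, 16.9 and 12.8 CPM in untreated libraries 1 to 5. Every ibudilast library was above the highest untreated one, untreated 4 (log2 fold change 1.40 ± 0.20, SE; edgeR adjusted p = 0.00105). Stard4 passed in all 10 fits with 1 library left out, with log2 fold changes from 1.29 to 1.56, and within the animals of tags below 100 (1.53, 3 rats a group) and above 100 (1.31, 2 rats a group).

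Soat1, which encodes the enzyme that esterifies cholesterol for storage, averaged 11.1 ± 1.93 CPM with ibudilast and 9.97 ± 1.53 CPM without (SD, n = 5 each; edgeR adjusted p = 0.451). Cyp46a1, the neuronal 24-hydroxylase gene whose product lets cholesterol leave the brain, stood at 328, 284, 141, 313 and 279.9 CPM in ibudilast libraries 1 to 5, against 278, 315, 310.5, 282 and 299 CPM in untreated libraries 1 to 5. Apart from ibudilast 3 the groups covered the same range, and the log2 fold change of -0.14 became 0.03 once it was left out.

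In fatty acid synthesis 1 of 4 genes rose and 1 fell, beside 20.0% of all tested genes higher and 18.5% lower. Acaca, whose product makes malonyl-CoA and sets the rate of the pathway, stood at 105, 114, 83.6, 122 and 106 CPM in ibudilast libraries 1 to 5, against 41.5, 40.1, 46.7, 54.0 and 56.8 CPM in untreated libraries 1 to 5. The groups were well apart (log2 fold change 1.15 ± 0.13, SE; edgeR adjusted p = 0.000664), and Acaca was rank 29 by p among all tested genes. It passed in every fit with 1 library left out, with log2 fold changes from 1.09 to 1.25.

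The genes of the enzymes just before and after it, Acly and Fasn, did not pass, whereas Scd did. Acly, the citrate lyase gene that supplies acetyl-CoA, stood at 289, 321, 204, 328 and 304 CPM in ibudilast libraries 1 to 5, against 283, 230.0, 334, 254 and 359 CPM in untreated libraries 1 to 5. These ranges overlapped almost wholly (log2 fold change -0.01, approximate 95% interval -0.37 to 0.35). Fasn, the fatty acid synthase gene, averaged 391 ± 47.8 CPM with ibudilast and 348 ± 41.1 CPM without (SD, n = 5 each; log2 fold change 0.17, approximate 95% interval -0.09 to 0.43). Scd, the gene of stearoyl-CoA desaturase, stood at 3174, 3340.2, 2727, 2768 and 3006 CPM in ibudilast libraries 1 to 5, against 4162, 4169.6, 3987, 3849 and 3280.2 CPM in untreated libraries 1 to 5. Only untreated 5 fell within the ibudilast range (log2 fold change -0.37 ± 0.12, SE; edgeR adjusted p = 0.0281). Scd passed in 5 of the 10 fits with 1 library left out, not without ibudilast 4, ibudilast 5, untreated 1, untreated 2 or untreated 3, where its adjusted p reached 0.0704. Rats have close paralogs of Scd, so its count carries the uncertainty of reads shared between them.

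The library that stood lowest most often was ibudilast 3, the one with cerebellar and meningeal markers. It was the lowest of the 10 libraries for 16 of the 31 genes, among them 12 of the 18 sterol enzymes, whereas over all tested genes it was the lowest for 20.7% and the highest for 21.5%. Summed over the 18 enzymes, the level was 1556, 1599, 1112, 1703 and 1518 CPM in ibudilast libraries 1 to 5, against 1628, 1293, 1579, 1407 and 1619.6 CPM in untreated libraries 1 to 5. Without ibudilast 3 the ibudilast range was 1518 to 1703 CPM and overlapped the untreated range of 1293 to 1628 CPM. The fold change of 26 of the 31 genes was higher without ibudilast 3 (55.2% of all tested genes). Then 10 genes passed, 8 higher, with Srebf2 and Hsd17b7 added, and 2 lower, Scd and Dhcr7. Of 11705 tested genes 40.6% passed in that fit, 2573 higher and 2178 lower. With ibudilast 3, ibudilast 5 and untreated 1 left out, 6 of 31 rose and 0 fell by edgeR (0 lower at an unadjusted p under 0.05). Of 11720 tested genes 26.6% were called there, 1755 higher and 1357 lower. The median over the 18 enzymes was -0.0008 in the same fit.

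**Figure D3:**
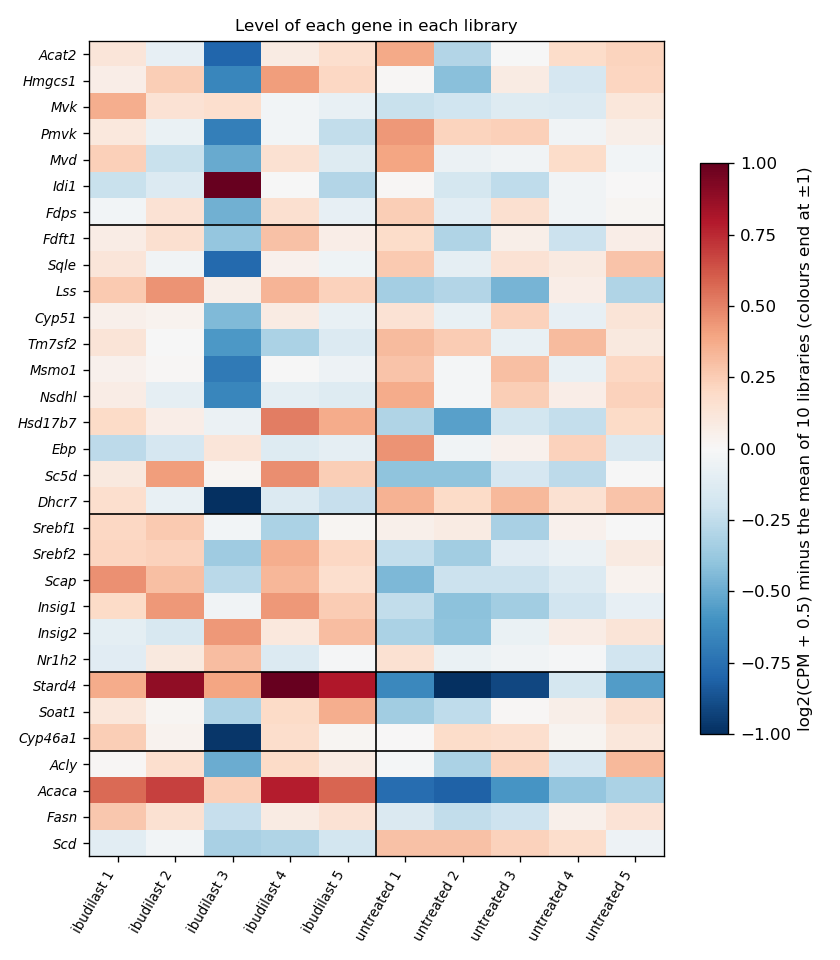
Each cell is log2(CPM + 0.5) of a gene (rows, ordered by role, lines between roles) in a library (columns, ibudilast left of untreated) minus the mean of that gene over the 10 libraries; colours end at ±1. Ibudilast 3 is the lowest library for 12 of the 18 sterol enzymes, Idi1 (105 CPM) is high in it, and Stard4 and Acaca divide the groups.

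**Figure D4:**
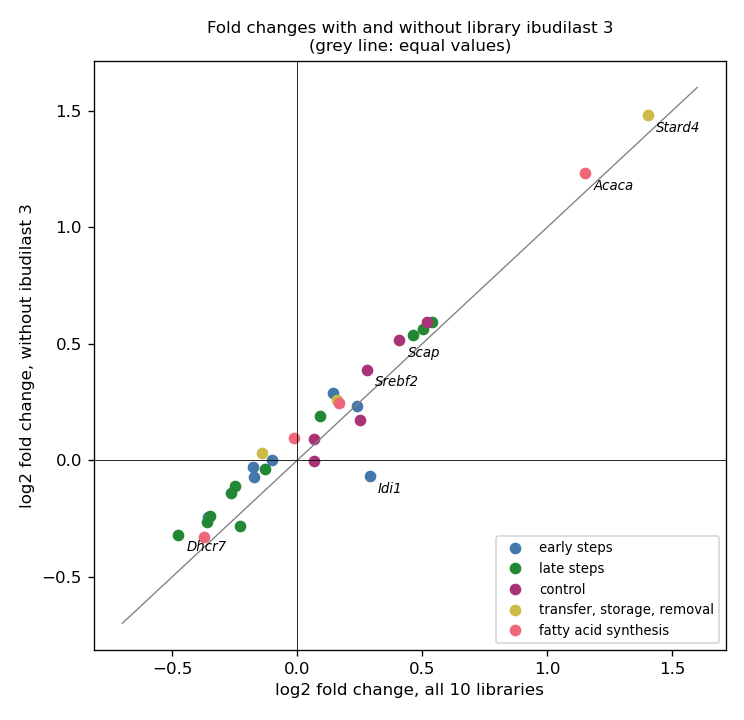
Log2 fold change (ibudilast over untreated) of each of the 31 genes with all 10 libraries (x axis) and without ibudilast 3 (y axis); the grey line marks equal values. Most points lie above the line (26 of 31), Idi1 moves from 0.29 to -0.07, and Stard4 (1.48) and Acaca (1.23) remain highest without that library.

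Of the 24 genes that did not pass, 13 had an approximate 95% interval (estimate ± the t quantile on 8 degrees of freedom times the SE) within a 1.5-fold change either way. For 4 the interval reached 1.5-fold higher, with Hsd17b7 up to a log2 fold change of 0.89, and for 7 it reached 1.5-fold lower, with Dhcr7 down to -0.89. The median coefficient of variation between libraries was 17.3% with ibudilast and 11.9% without, and it was the larger with ibudilast for 24 of the 31 genes.

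Across all tested genes, fold changes ran with the genomic span of the gene, with median log2 fold changes of -0.29 for the shortest decile and 0.39 for the longest. Most of the 31 genes are short: the sterol enzymes span 4.36 to 30.9 kb, and the decile medians at their lengths lie between -0.29 and 0.04. Acaca, at 262 kb, belongs to the longest decile. Insig1 (8.47 kb) and Sc5d (11.6 kb) belong to a decile with a median of -0.12 and Stard4 (15.3 kb) to one with -0.06, so all 3 rose where the typical gene of their span lay below 0. With the span trend removed the log2 fold changes were 0.76 for Acaca, 1.44 for Stard4, 0.64 for Insig1, 0.58 for Sc5d and 0.48 for Lss, and each still passed, while Scap (0.23) and Scd (-0.31) did not and Nsdhl was called lower. Spans came from GRCr8 and counts from rn6, so the spans are approximate.

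**Figure D5:**
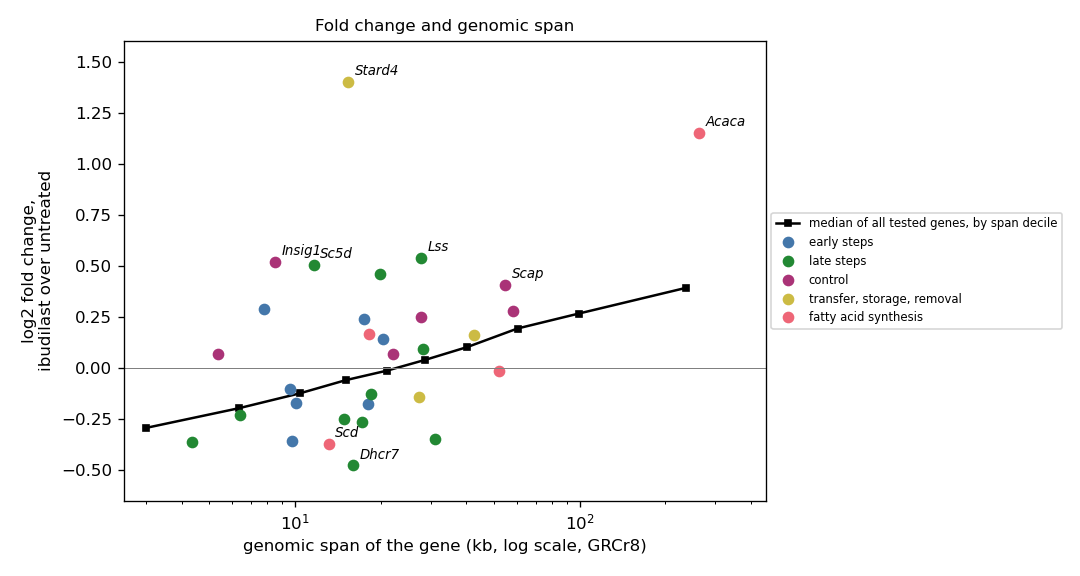
Log2 fold change (y axis, ibudilast over untreated) of the 31 genes against genomic span in GRCr8 (x axis, kb, log scale), with the median of all tested genes in each span decile as black squares. Stard4 (15.3 kb) and Insig1 (8.47 kb) stand above the medians of their span deciles, and Acaca (262 kb) lies above the median of the longest decile (0.39).

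A neocortical marker score, the mean over the tested markers of the z-score of log2(CPM + 0.5), was then used as a covariate. With it 3 of the 31 genes were called higher, Acaca, Stard4 and Idi1, and 7 lower, Pmvk, Fdps, Sqle, Msmo1, Nsdhl, Dhcr7 and Cyp46a1. Over all tested genes 29.2% were called in this fit (1890 higher, 1521 lower). Acaca (0.91) and Stard4 (1.13) still passed, whereas Insig1 (0.28), Lss (0.39), Sc5d (0.29), Scap (0.13) and Scd (-0.44) did not, and Dhcr7 was called lower (-0.93 ± 0.21, SE; edgeR adjusted p = 0.0103). Since the score itself differs between the groups, its part and that of the treatment cannot be told apart.

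Other genes of the same pathways were read from 4 lists of 66 further symbols, of which 59 were in the file and 58 were tested; the other 7 were not analysed here. In the list for SREBP processing and sterol sensing 4 of 10 rose and 0 fell by edgeR, DESeq2 and limma-voom (2 lower at an unadjusted p under 0.05), beside 20.0% of all tested genes higher and 18.5% lower. The site-1 and site-2 protease genes that free SREBP from the membrane were among them: Mbtps1 averaged 137 ± 19.9 CPM with ibudilast and 95.4 ± 10.1 CPM without, and Mbtps2 14.1 ± 1.82 CPM and 10.0 ± 1.01 CPM in the same order (SD, n = 5 each). Rnf145 and Faf2, which act in sterol-driven degradation at the endoplasmic reticulum, had log2 fold changes of 0.31 ± 0.09 and 0.46 ± 0.11 (SE). Rnf145 passed in 6 of the 10 fits with 1 library left out, not without ibudilast 2, ibudilast 4, untreated 2 or untreated 3. With the span trend removed Mbtps2 (0.29) and Rnf145 (0.16) did not pass, and with the neocortical score Faf2 (0.32) and Rnf145 (0.20) did not. Mbtps2 (0.38) also missed without ibudilast 3, ibudilast 5 and untreated 1.

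For cholesterol uptake, transport and oxysterols 5 of 18 rose and 2 fell, beside the same shares of all tested genes. Gramd1b, a carrier of cholesterol from the plasma membrane, averaged 88.9 ± 10.8 CPM with ibudilast and 49.4 ± 6.97 CPM without (SD, n = 5 each). Osbpl1a, an oxysterol-binding protein gene, averaged 284 ± 93.5 CPM with ibudilast and 144 ± 21.0 CPM without, a log2 fold change of 0.98 that was 0.59 with the span trend removed and did not pass with the neocortical score (0.37) or within tags below 100 (0.73). Npc2, which hands cholesterol out of lysosomes, fell to 103 ± 18.7 CPM with ibudilast, against 177 ± 36.9 CPM without, and Cyp7b1, an oxysterol hydroxylase gene, to 21.2 ± 4.81 CPM against 39.8 ± 3.74 CPM.

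Among genes of fatty acid supply, elongation and desaturation 1 of 16 rose and 4 fell, again beside 20.0% higher and 18.5% lower over all tested genes. Elovl6, which lengthens palmitate, averaged 40.8 ± 4.08 CPM with ibudilast and 22.3 ± 3.47 CPM without (SD, n = 5 each). Slc25a1, the mitochondrial citrate carrier gene, Mid1ip1, whose product activates acetyl-CoA carboxylase, and Elovl2, an elongase of long polyunsaturated fatty acids, fell by 0.48 ± 0.11, 0.42 ± 0.09 and 0.46 ± 0.12 on the log2 scale (SE). With the span trend removed Slc25a1 (-0.24) and Mid1ip1 (-0.14) did not pass, with the neocortical score Mid1ip1 (-0.28) and Elovl2 (-0.52) did not, and none of the 3 passed within either range of tags. Slc25a1 (-0.39) and Elovl2 (-0.42) also missed without ibudilast 3, ibudilast 5 and untreated 1, and Elovl2 (-0.46) with the replicate block. In fatty acid activation and storage 3 of 14 rose and 3 fell, beside those same shares. Gpam, the first enzyme of glycerolipid synthesis, averaged 46.5 ± 4.63 CPM with ibudilast and 23.8 ± 2.93 CPM without, and Lpin1, a phosphatidate phosphatase, 37.3 ± 7.71 CPM and 14.4 ± 3.56 CPM in the same order. Fabp7, a fatty acid binding protein of astrocytes and progenitors, fell to 36.5 ± 13.2 CPM with ibudilast, against 116 ± 20.3 CPM without, beside the lower astrocyte markers given above. Fabp5, its relative, fell to 40.3 ± 11.3 CPM with ibudilast, against 70.1 ± 10.8 CPM without.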

How the data were processed

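RNA of 10 left hippocampi was sequenced from strand-specific mRNA libraries, per the labels' protocols. The authors deposited expected counts per gene symbol, and the submitters' processing notes name build rn6, edgeR, RSEM 1.2.15, Bowtie2 2.1.0 and bcl2fastq 2.17. Which annotation, filters and strand setting the counting used is not given here, so reads of overlapping and antisense genes may be mixed. The second deposited table is a signal, CPM after TMM scaling by the authors, and 99.95% of it lay within 0.1% of values recomputed from the counts. In each library 10.6% to 11.3% of the expected counts had decimals and were rounded before testing.

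Tests on the counts used edgeR 4.0.16 under R 4.3.3 (TMM factors, filterByExpr, quasi-likelihood test, Benjamini-Hochberg adjustment over 11682 genes), and each SE was the fold change over the root of its F statistic. Groups came from the treatment labels. The members, lists and tests were chosen with earlier results of these data known. Named genes are all 31 members and, of each further list, up to 4 called genes of smallest p; another list is not reported here. The p-values weigh the difference between the groups against the spread among rats within each group, for these 10 rats only.

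Alternatives were RLE factors, no filter, DESeq2 1.42.0, limma-voom and limma-trend (limma 3.58.1, log2 of deposited CPM plus 1 or 0.1), a block for the replicate number, a covariate for animal tags below or above 100, and leaving out each library. Chosen after the data were seen were fits without ibudilast 3, ibudilast 5 and untreated 1, within each range of animal tags, with a neocortical marker score, and with a loess trend on gene span removed (span of 0.5). RefSeq (GRCr8) gave a gene span for 91.8% of the tested genes. The fits were checked on simulated data. There edgeR recovered 27.6% of 1.5-fold changes and 74% of 2-fold changes, with 4 false among 105 calls. In that simulation 198 of 11603 genes were changed, fewer than were called in these data, so the recovered shares cannot be carried over directly.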

Additional observations from a re-analysis of the deposited data

Results flagged for a closer look

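Within a group of 5 libraries, a library was singled out where its gap to the nearest other one was over 0.71 of the range of the group. Of 64 such groups 8 held one, and 5 of the 8 were in ibudilast 3. Chance gives about 1 in 20 for a single group. The groups share the same libraries and are not independent, so the count of 8 cannot be weighed against that rate. There Idi1 stood at 105 CPM against 39.7 to 48.4 CPM in the other ibudilast libraries. Sqle stood at 46.7 CPM against 78.0 to 87.1 CPM, Msmo1 at 78.9 CPM against 125 to 133 CPM, Srebf2 at 304 CPM against 450.3 to 499.7 CPM, and Cyp46a1 at 141 CPM against 279.9 to 328 CPM. Among untreated libraries Mvk stood at 30.9 CPM in untreated 5 against 24.4 to 26.1 CPM in the others, Lss at 38.6 CPM in untreated 4 against 26.5 to 30.0 CPM, and Srebf1 at 77.3 CPM in untreated 3 against 96.5 to 103 CPM. Cerebellar and meningeal markers stood out in ibudilast 3, and their part in its values was not tested.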

How the results depend on the processing

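Acaca and Stard4 passed under all 23 alternatives, with log2 fold changes of 0.76 to 1.25 and 1.13 to 1.56. Insig1, Lss and Sc5d passed under 21 of 23 each, not with the neocortical score or within tags above 100. With 1 library left out, edgeR called 3458 to 4751 genes, 29.4% to 40.6% of those tested (1843 to 2573 higher, 1615 to 2284 lower). It called 5 to 10 of the 31 members (5 to 8 higher, 0 to 5 lower, and 2 to 5 lower at an unadjusted p under 0.05). The 5 lower came without ibudilast 1. Members called lower were 3 by DESeq2 and 2 by limma-voom, beside 2398 and 2158 of 11682 tested genes. Same-numbered libraries did not deviate together (correlations of -0.133 to 0.021, 0 of 5 best with their own number). With the replicate block edgeR called 3535 of 11682 genes (30.3%, with 1874 higher and 1661 lower). It called 5 of 31 members, all higher, with 0 lower (5 at an unadjusted p under 0.05). Without ibudilast 3, ibudilast 5 and untreated 1, 1357 of 11720 genes and 0 of 31 members were lower. With the neocortical score 3411 genes were called (1890 higher, 1521 lower), and 3 members were higher and 7 lower. Within tags below 100, 1997 of 11751 genes were called (17%, with 1182 higher and 815 lower). Of the 31 members 5 were called there, 5 higher and 0 lower (0 lower at an unadjusted p under 0.05). Within tags above 100, 540 of 11779 genes were called (4.58%, with 414 higher and 126 lower). Of the 31 members 2 were called there, 2 higher and 0 lower (1 lower at an unadjusted p under 0.05). The cause of these shifts was not tested. Several of these fits held fewer libraries, and the part of the smaller number was not tested either.

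Calls of other members also came and went with 1 library: Mvk and Hsd17b7 passed without untreated 5, and Pmvk, Tm7sf2, Nsdhl and Dhcr7 without ibudilast 1. None of the log2 fold changes that turned sign belonged to a gene called with all libraries. With 1 library left out they ran from -0.067 to 0.39 for Idi1, -0.0021 to 0.14 for Srebf1, -0.0017 to 0.12 for Nr1h2, -0.089 to 0.10 for Acly and -0.22 to 0.029 for Cyp46a1. The turns came without ibudilast 3 (Idi1, Nr1h2, Cyp46a1, Acly), untreated 3 (Srebf1, Acly) or untreated 5 (Acly). With the 3 libraries left out they were 4.37e-05 for Acat2, 0.047 for Mvd, -0.010 for Idi1, 0.079 for Fdps, 0.028 for Cyp46a1 and 0.083 for Acly. With the span trend removed Fdps stood at 0.0048. With the neocortical score they were -0.38 for Hmgcs1, -0.22 for Fdft1, -0.049 for Srebf2 and -0.069 for Soat1. Fdft1 stood at -0.0075 within tags below 100. Within tags above 100 the values were -0.016 for Mvk, -0.10 for Idi1, 0.077 for Fdps, 0.0060 for Cyp51, -0.12 for Srebf1, 0.055 for Cyp46a1 and 0.070 for Acly. Counts per member were at least 33 in every library, so depth limits the genes of lowest count, such as Hsd17b7, most.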
